A study of Homo sapiens with 6 samples.

Results

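Amino acids enter a cell through carrier proteins of the plasma membrane, and 10 of the genes for these carriers were followed here through 1 drug treatment. The 10 genes are SLC3A2, SLC7A5, SLC7A11, SLC7A1, SLC7A3, SLC38A2, SLC1A4, SLC1A5, SLC6A9 and SLC43A1, chosen by name from the 40295 gene rows of the table. All 10 had a row. RNA was measured in HDQ-P1, an established human breast carcinoma line, and both groups were grown in high-glucose medium with serum. One group had been given Y-320 at 1 μM and collected after 48 h (n = 3), and the other was untreated (n = 3), with no solvent mentioned for it. Y-320 is a small molecule that the study tested as an enhancer of readthrough of premature termination codons by aminoglycosides, and neither group of libraries received an aminoglycoside. The labels number the replicates but do not say that they were separate cultures, so p-values here measure the spread between these libraries only.

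These carriers differ in what they move and in what drives the movement. SLC7A5 and SLC7A11 are light chains that reach the cell surface bound to the heavy chain SLC3A2, and both are exchangers that bring in one amino acid while another leaves. SLC38A2, SLC1A4 and SLC1A5 move small neutral amino acids coupled to sodium, SLC7A1 and SLC7A3 carry cationic amino acids such as arginine and lysine, SLC6A9 carries glycine, and SLC43A1 passes large neutral amino acids down their gradient. Many of these genes are known to be transcribed more when amino acids run short, through the factor ATF4 bound with a C/EBP partner, and tumour cells often carry high levels of SLC7A5 and SLC1A5.

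The values start from the authors' estimated counts per gene, from kallisto, a program that divides reads among known transcripts. Libraries held 21045401 to 22740535 counts. Normalised CPM is a count scaled to a common library total, after TMM correction of the totals, and 1 count was worth 0.0438 to 0.0480 CPM. Of the epithelial markers, all 7 were expressed, with a summed level of 7710 to 8040 CPM in untreated and 4610 to 4650 CPM in Y-320 treated libraries. Of these 7 epithelial markers, edgeR called 6 lower (85.7%, beside 25.4% of all genes tested) and 1 higher (14.3%, beside 26.2%). Their median log2 fold change was -0.863. KRT5 fell by 2.44 and KRT8 by 1.02 on the log2 scale. KRT14 was at -1.726, KRT18 at -0.863, KRT19 at -0.621 and CDH1 at -0.108. In these 6 each treated library was below each untreated one. EPCAM rose by 0.38. The 8 markers of blood, endothelial and stromal cells summed to 68.5 to 89.1 CPM in untreated and 44 to 55.9 CPM in treated libraries, 1 of them (CD3E) at or under 3 counts in every library. Both sums were lower after treatment, but the markers of other cell types did not move together. Of the 7 tested, 2 were called lower (28.6%), 1 higher (14.3%) and 4 neither. The stromal genes PDGFRB and COL1A1 fell by 1.82 and 0.70 on the log2 scale, while the endothelial gene PECAM1 rose by 1.22, from 3.977 ± 0.33 to 9.263 ± 2.1 CPM (SD, n = 3 each, edgeR adjusted p = 0.000110). CD14 passed no threshold and was above in each treated library, at 0.903 to 1.18 against 0.544 to 0.863 CPM. PTPRC passed none either and was below in each, at 0.438 to 0.595 against 0.634 to 0.906 CPM. COL3A1 and VWF were also past no threshold, and their groups overlapped. The part of these markers in the results below was not tested.

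Windows around the transcript starts of these genes were searched for the cores of 2 known regulatory elements, and the matches are shown first. RefSeq windows of GRCh38.p14, from 250 bases before to 50 bases after an annotated start, were searched on both strands for TGATGNAA, the core of the element bound by ATF4 with C/EBP factors. Windows were matched for 8 of the 10 genes, 14 windows in all, since a gene can have several starts, and SLC7A11 and SLC7A3 had no entry. The core was in 1 window each of SLC1A4, SLC1A5, SLC7A1 and SLC3A2, which is 4 of 14 windows (28.6%), against 3.62% of all 35114 windows. In the list of 28 other plasma membrane amino acid transporters, 2 of 34 windows held it (5.88%), those of SLC1A3 and SLC38A1. The sites in the group are given 5′ to 3′ on the strand of the gene, with the matched core in capitals.
SLC1A4, chr2:64989381-64989410, plus strand: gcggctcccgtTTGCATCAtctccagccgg
SLC1A5, chr19:46784893-46784922, minus strand: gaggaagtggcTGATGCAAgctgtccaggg
SLC7A1, chr13:29595663-29595692, minus strand: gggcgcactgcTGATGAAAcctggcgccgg
SLC3A2, chr11:62881719-62881748, plus strand: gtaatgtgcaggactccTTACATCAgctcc
In SLC1A4 and SLC3A2 the core was read on the opposite strand, so that its reverse complement is printed. The SLC1A4 core ends on the first base of the main transcript. The SLC7A1 core lies in the untranslated first exon, where its first base is 7 bases after the annotated start. Those of SLC1A5 and SLC3A2 are at alternative starts inside the gene. The SLC1A5 core, whose first base lies 97 bases before such a start, is in an intron of the main transcript and an untranslated exon of another. In SLC3A2, the first base of the core is at position 38, with an alternative start counted as 1. It is in an intron of the main transcript and a coding exon of another.

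A core of the antioxidant response element, TGACNNNGC, the kind of site bound by NFE2L2 with small MAF proteins, was in 4 of the 14 windows (28.6%), in 3 of the 34 windows of the other transporters (8.82%) and in 13.3% of all windows. It is shown because SLC7A11, the cystine carrier, and its heavy chain are known targets of NFE2L2.
SLC3A2, chr11:62881652-62881681, plus strand: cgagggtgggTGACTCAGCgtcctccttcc
SLC7A5, chr16:87869490-87869519, minus strand: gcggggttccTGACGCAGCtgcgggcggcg
SLC7A1, chr13:29595754-29595783, minus strand: tgcccggcggTGACGCGGCcgagcgggccg
SLC1A5, chr19:46787385-46787414, minus strand: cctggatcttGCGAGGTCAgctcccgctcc
The SLC7A5 core spans the main start, the SLC7A1 core lies upstream of it, that of SLC3A2 is in an intron and that of SLC1A5, on the opposite strand, is in a coding exon. The sites of the 2 motifs do not overlap. Such matches describe the letters in these windows only, and SLC38A2, SLC6A9 and SLC43A1 had neither core in theirs.

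All 9 transporters that had enough counts to be tested were higher in the Y-320 treated libraries, and the tenth, SLC7A3, had no count in any library. Among 16580 genes compared by edgeR (quasi-likelihood, p adjusted by the Benjamini-Hochberg method, threshold 0.05), 9 members were called higher and 0 lower. Across all genes tested, 26.2% were called higher and 25.4% lower. The members had been chosen with earlier results of these data known, which limits this comparison. No member was lower at an unadjusted p under 0.05 either. In all 9 the groups did not overlap, each treated library being above each untreated one, which held for 29.8% of all genes tested, while in 29.4% each treated library was below. The median log2 fold change of the 9 genes was 0.72, beside 0.00 over all genes tested, and the range was 0.50 to 1.62. The group's part of all counts was 0.167% to 0.178% in untreated and 0.262% to 0.271% in treated libraries. In bulk RNA, more transcript per cell and more cells carrying it cannot be told apart.

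**Figure D1:**
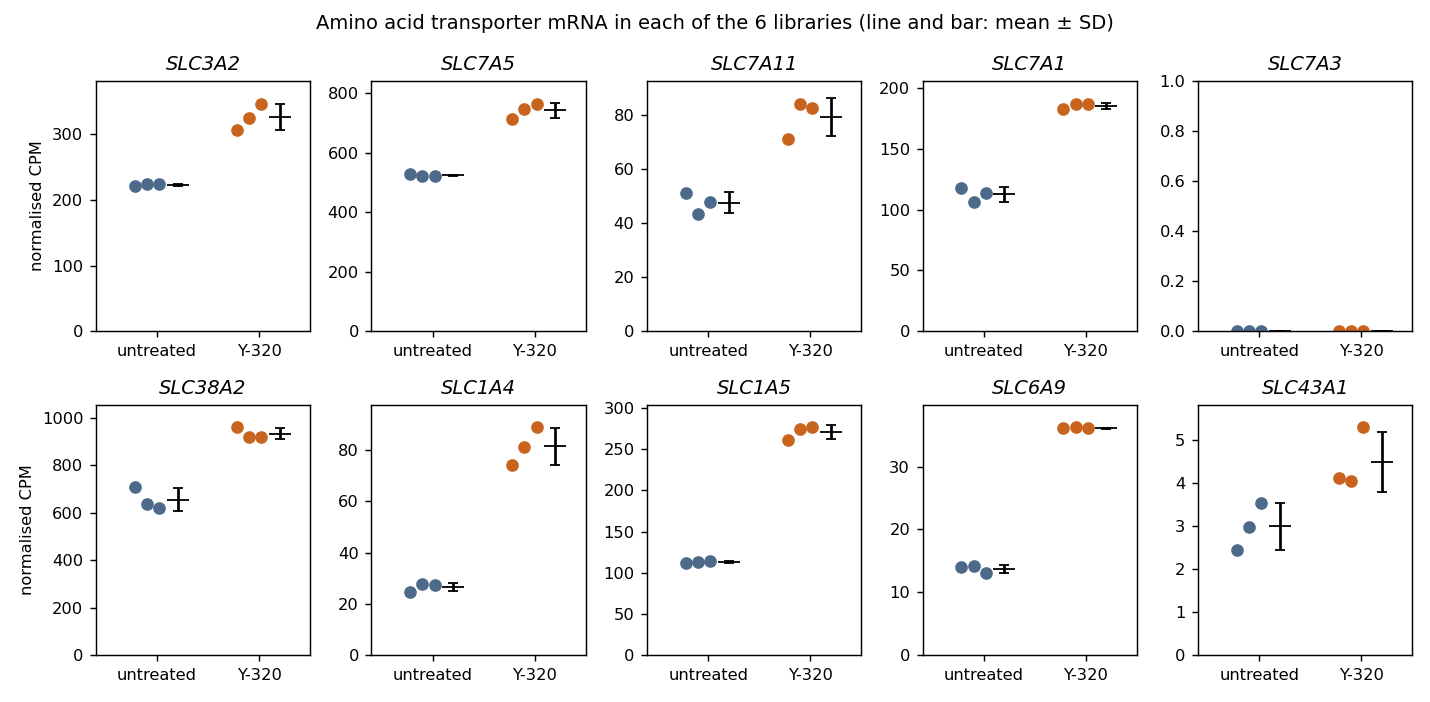
Normalised CPM (vertical axis, linear from 0) of each of the 10 transporters in the 3 untreated and the 3 Y-320 treated libraries. Points are libraries, and the line with its bar is the mean ± SD. In 9 panels the treated points lie above all untreated points, from 3.07-fold for SLC1A4 to 1.42-fold for SLC7A5, and SLC7A3 is at 0 in each library.

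The heavy chain comes first, since both light chains of the group need it. SLC3A2 (ENSG00000168003, chromosome 11, 62856004 to 62888880, plus strand of hg38) encodes the single-pass glycoprotein also called CD98 heavy chain. It was at 221.1, 223.6 and 224.3 normalised CPM in untreated replicates 1, 2 and 3, and at 306.5, 324.8 and 346.2 in Y-320 replicates 1, 2 and 3. Untreated libraries lay within a few CPM of each other, and the lowest treated library was well above them. The mean rose from 223 ± 1.67 to 325.9 ± 19.9 CPM (SD, n = 3 each), or in log2 terms 0.55 (SE 0.0395, edgeR adjusted p = 1.26e-06).

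SLC7A5 (ENSG00000103257, chromosome 16, 87830023 to 87869507, minus strand) is the light chain LAT1, which brings in leucine and other large neutral amino acids in exchange for glutamine or other substrates. Its levels were 526.8, 522.5 and 521 CPM in the untreated and 713.6, 747.7 and 764.3 CPM in the treated replicates. The spread was small in both groups beside the gap between them. Its mean of 523.4 ± 3.04 CPM became 741.8 ± 25.9 CPM (SD, n = 3 each), which is a log2 fold change of 0.50 (SE 0.0268, edgeR adjusted p = 1.34e-07), the smallest estimate of the 9, close to that of SLC38A2. Other genes hold 11.4% of its 31-base words, the default word length of kallisto. Among them are the pseudogenes SLC7A5P1, with 3.35 to 15.2 counts per library, and SLC7A5P2 with none. Reads taken by those copies were few next to its 10896 to 16936 counts. ENSG00000291073 shares 5.58% of the words and the opposite-strand lncRNA gene ENSG00000260466 5.09%. The latter has no row of its own in the counts, and reads of the former were not examined.

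SLC7A11 (ENSG00000151012, chromosome 4, 138164097 to 138242349, minus strand) is the light chain xCT, which imports cystine, the oxidised dimer of cysteine, and exports glutamate. In the untreated replicates it was at 51.3, 43.5 and 47.8 CPM and in the treated replicates at 71.3, 84.3 and 82.6 CPM. Y-320 replicate 1 was the lowest treated library and was still above the highest untreated one. The mean went from 47.55 ± 3.9 to 79.4 ± 7.07 CPM (SD, n = 3 each), and the log2 difference was 0.74 (SE 0.0713, edgeR adjusted p = 1.12e-05). An antisense gene, SLC7A11-AS1, shares 8.41% of its 31-base words and has no row of its own in the counts. Whether the libraries kept strand is not given in the sources used here, so that reads of the pair cannot be told apart there.

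SLC7A1 (ENSG00000139514, chromosome 13, 29509414 to 29595688, minus strand) is CAT-1, the main arginine and lysine carrier of most dividing cells. It was measured at 118.1, 106.2 and 113.4 CPM without and at 182.7, 186.8 and 187 CPM with Y-320. Treated libraries were nearly equal to each other, and every untreated one was far below them. From 112.6 ± 6.03 to 185.5 ± 2.42 CPM (SD, n = 3 each), the log2 fold change was 0.72 (SE 0.0369, edgeR adjusted p = 1.01e-07). No other gene holds any (0%) of its 31-base words. SLC7A3 (ENSG00000165349, chromosome X, 70925579 to 70931125, minus strand), the related carrier CAT-3 best known from brain, had 0 counts in each of the 6 libraries. A count of 0 allows up to 3 counts, or 0.131 to 0.144 CPM, for counting error only, and it was not tested.

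SLC38A2 (ENSG00000134294, chromosome 12, 46358188 to 46372773, minus strand) encodes SNAT2, the sodium-coupled carrier of alanine, glutamine and other small neutral amino acids that is a classic case of induction by amino acid shortage. It stood at 709.3, 637 and 618.1 CPM in untreated and at 960, 921.6 and 920.1 CPM in treated replicates. Replicate 1 was the highest of its group in both, and the groups did not overlap. The mean of 654.8 ± 48.1 CPM became 933.9 ± 22.6 CPM (SD, n = 3 each), and the log2 fold change was 0.51 (SE 0.0442, edgeR adjusted p = 4.86e-06). It too shares 0% of its 31-base words.

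The largest change in the group was that of SLC1A4 (ENSG00000115902, chromosome 2, 64988477 to 65023865, plus strand), or ASCT1, an exchanger of alanine, serine, cysteine and threonine. Its 6 values were 24.7, 27.6 and 27.4 CPM in the untreated and 74.45, 81.2 and 88.95 CPM in the treated replicates. Each treated library was far above each untreated one. The mean rose 3.07-fold, from 26.57 ± 1.59 to 81.53 ± 7.26 CPM (SD, n = 3 each), and the log2 difference was 1.62 (SE 0.0694, edgeR adjusted p = 3.03e-08). By size of increase it was number 132 of the 16580 genes tested.

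SLC1A5 (ENSG00000105281, chromosome 19, 46774883 to 46788594, minus strand) is ASCT2, its close relative, which also takes glutamine. Its levels were 112.3, 112.8 and 114 CPM in the untreated and 260.9, 274.2 and 276.5 CPM in the treated replicates. The untreated libraries were nearly equal, and the treated ones were all far higher. SLC1A5 rose 2.39-fold, from 113 ± 0.885 to 270.5 ± 8.41 CPM (SD, n = 3 each), or in log2 terms 1.26 (SE 0.0297, edgeR adjusted p = 7.65e-10). It ranked number 274 by size of increase. An opposite-strand lncRNA gene (ENSG00000275719) shares 22.2% of its 31-base words. That gene has no row of its own in the counts, so that its reads cannot be told apart from those of SLC1A5 there.

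SLC6A9 (ENSG00000196517, chromosome 1, 43991500 to 44031467, minus strand), the glycine carrier GlyT1, was at 14.0, 14.1 and 13.0 CPM in the untreated and at 36.1, 36.25 and 36.1 CPM in the treated replicates. The treated libraries were almost the same, and all were far above the untreated ones. Its mean changed from 13.71 ± 0.617 to 36.15 ± 0.0832 CPM (SD, n = 3 each), a 2.64-fold rise or 1.40 on the log2 scale (SE 0.0477, edgeR adjusted p = 6.45e-09), number 211 by size. Its opposite-strand neighbour CCDC24, which shares 6.04% of its 31-base words, had 369 to 443 counts per library beside 287 to 825 for SLC6A9, and with strand not given a part of either can belong to the other.

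SLC43A1 (ENSG00000149150, chromosome 11, 57484534 to 57515780, minus strand) is LAT3, a facilitative carrier of leucine and related amino acids that needs no heavy chain. It was the weakest of the expressed members, with 54, 62 and 78 counts in untreated and 94, 88 and 117 counts in treated replicates, or 2.45, 2.97 and 3.53 against 4.11, 4.03 and 5.28 normalised CPM. The groups were close and did not overlap. Its mean rose from 2.984 ± 0.544 to 4.474 ± 0.699 CPM (SD, n = 3 each), and the log2 fold change of 0.58 had the largest error of the group (SE 0.171, edgeR adjusted p = 0.0157). Without untreated replicate 1 the change was 0.46 with an edgeR adjusted p of 0.0558, and without Y-320 replicate 3 it was 0.45 with 0.0674, so that the call rested on these libraries.

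Levels can be compared between genes only per length, here as normalised CPM per kb of the main transcript of GENCODE 44. In untreated cells the order was SLC38A2 (137 ± 10.0), SLC3A2 (118 ± 0.884), SLC7A5 (115 ± 0.667), SLC1A5 (39.2 ± 0.307), SLC7A1 (15.3 ± 0.822), SLC1A4 (5.82 ± 0.349), SLC7A11 (4.93 ± 0.404), SLC6A9 (4.28 ± 0.192), SLC43A1 (1.19 ± 0.216) and SLC7A3 (0), each in CPM per kb (SD, n = 3). No neighbours in that order overlapped between libraries. In Y-320 treated cells SLC38A2 (195 ± 4.72), SLC3A2 (173 ± 10.5) and SLC7A5 (163 ± 5.68) still led. These places depend on the transcript taken as length. With the longest transcript of each gene, an alternative chosen after seeing the data, SLC3A2 was at 78.4 ± 0.586 in untreated and 115 ± 6.99 CPM per kb in treated libraries, below SLC7A5 in both, and untreated SLC1A4, at 4.59 ± 0.275, came below SLC7A11 and overlapped both SLC7A11 and SLC6A9. By the main transcript, SLC3A2 at 163 to 184 and SLC7A5 at 157 to 168 CPM per kb overlapped there and were not told apart. The 1 exchange of places was SLC6A9, at 11.3 ± 0.0259, which stood above SLC7A11, at 8.23 ± 0.733 CPM per kb. SLC1A5 reached 93.9 ± 2.92 CPM per kb, SLC7A1 25.3 ± 0.33, SLC1A4 17.9 ± 1.59 and SLC43A1 1.78 ± 0.278. The 3 most abundant carriers had the 3 smallest estimates of log2 fold change in the group (0.50 to 0.55). The 3 that rose most, SLC1A4, SLC6A9 and SLC1A5, started at 4.28 to 39.2 CPM per kb. SLC43A1, the least abundant expressed member, rose by 0.58 (SE 0.171), which was not told apart from the 3 smallest.

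The balance between partners and between carriers of like substrates was followed as ratios of per-length levels within each library, described without a test. The sum of SLC7A5 and SLC7A11 over SLC3A2 was 1.03, 1.00 and 1.00 in untreated and 1.01, 1.00 and 0.960 in treated replicates. This ratio was nearly the same in both groups, which overlapped, and SLC7A5 made up most of its sum. With the longest transcript of each gene as its length the means were 1.53 and 1.49, so the value of the ratio depends on the transcript chosen. When the 6 known light chains of SLC3A2 were summed (SLC7A5, SLC7A11, SLC7A6, SLC7A7, SLC7A8 and SLC7A10, the last with at most 1.01 counts in a library), the ratio was 1.08 ± 0.0152 in untreated and 1.03 ± 0.0304 in treated libraries (SD, n = 3 each), lower in each treated library. Within the pair, SLC7A11 over SLC7A5 was 0.0460, 0.0394 and 0.0433 without and 0.0472, 0.0533 and 0.0510 with Y-320. All treated libraries were above all untreated ones, though Y-320 replicate 1 exceeded untreated replicate 1 only slightly.

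SLC1A4 over SLC1A5 was 0.139, 0.154 and 0.152 in untreated and 0.180, 0.187 and 0.203 in treated replicates, higher in each treated library. SLC38A2 over SLC38A1, its relative SNAT1, went from 3.12 ± 0.162 to 3.44 ± 0.13 (SD, n = 3 each), also with no overlap. Wider shifts were seen against relatives that fell. SLC7A1 over SLC7A2, another arginine carrier, was 21.5, 19.3 and 25.7 in untreated and 117, 94.0 and 75.4 in treated replicates. SLC7A5 over SLC7A8, the light chain LAT2, moved from 80 ± 9.19 to 250 ± 13.8 (SD, n = 3 each). Both ratios rose in each treated library, and both have weakly expressed genes below the line. SLC7A2 had a mean of 5.33 CPM in untreated and 2.084 CPM in treated libraries, and SLC7A8 of 6.136 and 2.77 CPM. SLC43A1 over SLC43A2, or LAT4, was 1.76 ± 0.827 in untreated and 2.42 ± 0.444 in treated libraries, and here the groups overlapped.

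**Figure D2:**
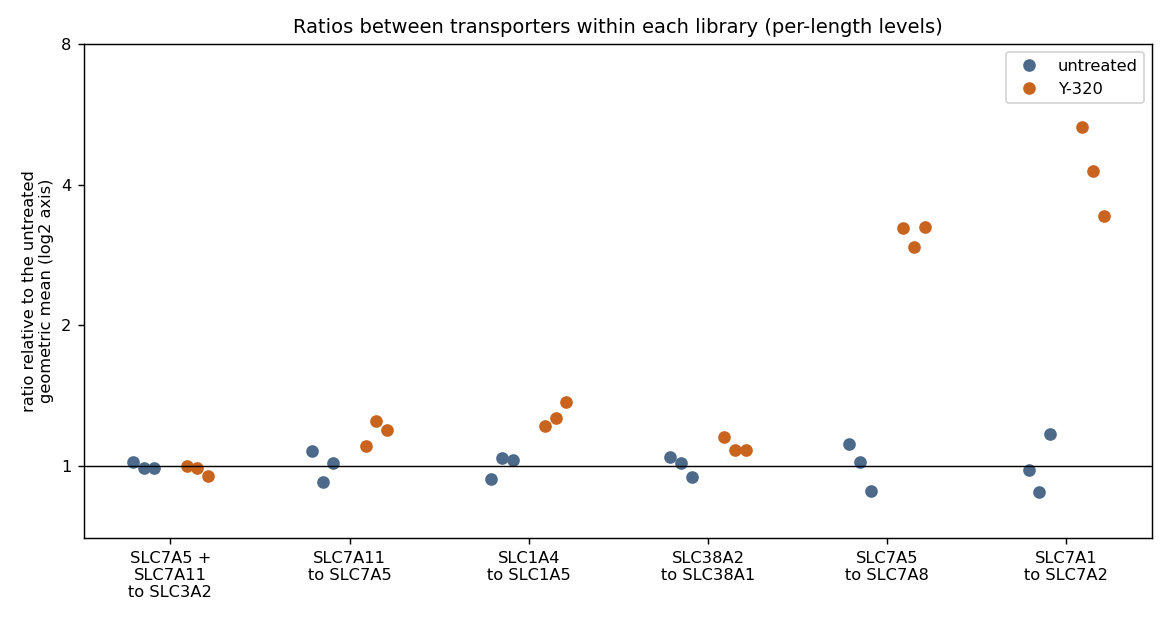
Ratios of per-length levels within each library, divided by the geometric mean of the untreated libraries (vertical axis, log2 scale), with 1 point per library and 3 libraries per group. The ratio of SLC7A5 plus SLC7A11 to SLC3A2 overlaps between groups, while SLC7A5 to SLC7A8 (mean 80 untreated, 250 treated) and SLC7A1 to SLC7A2 (22.2 and 95.5) separate most of the 6 ratios plotted.

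The other plasma membrane amino acid transporters did not move as a block. Of 28 genes listed, 18 had enough counts, and edgeR called 4 higher and 4 lower (22.2% each, beside 26.2% and 25.4% of all genes) and 10 neither way. Their median log2 fold change was 0.01, and in 5 the treated libraries were all above and in 5 all below the untreated ones. The glutamate carrier SLC1A1 rose by 1.24 (SE 0.142, edgeR adjusted p = 3.90e-05), its relative SLC1A6 by 0.61 (SE 0.0241, adjusted p = 1.79e-08), SLC38A1 by 0.37 (SE 0.0289, adjusted p = 2.21e-06) and SLC36A4 by 0.35 (SE 0.0447, adjusted p = 7.79e-05). Those that fell were SLC7A2 by 1.35 (SE 0.179, edgeR adjusted p = 0.000110), SLC7A8 by 1.15 (SE 0.130, adjusted p = 3.64e-05), SLC38A4 by 0.78 (SE 0.145, adjusted p = 0.00112) and SLC1A3 by 0.76 on the log2 scale (SE 0.0416, adjusted p = 1.67e-07). SLC7A2 and SLC7A8 belong to the same family as SLC7A5, SLC7A11 and SLC7A1, which rose.

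In the pair of glutamate carriers with opposite changes, SLC1A1 was at 2.17, 2.25 and 2.36 CPM in untreated and 6.04, 5.31 and 4.65 CPM in treated replicates, while SLC1A3 was at 60.8, 64.1 and 62.2 and at 37.7, 34.9 and 37.9 CPM. Neither overlapped between groups, and SLC1A3 remained the more abundant per length, the ratio of SLC1A1 to SLC1A3 being 0.0384 ± 0.00151 in untreated and 0.154 ± 0.0209 in treated libraries. Among the 10 genes past no threshold, log2 fold changes were 0.53 for SLC6A20, 0.28 for SLC6A15 (edgeR adjusted p = 0.0587), 0.18 for SLC1A2, 0.12 for SLC7A6, 0.01 for SLC43A2, 0.00 for SLC16A10, -0.08 for SLC38A5, -0.25 for SLC7A7, -0.40 for SLC36A2 and -0.40 for SLC38A3 (adjusted p = 0.0710). SLC7A6 shares 53.6% of its 31-base words with other genes, mostly the opposite-strand SLC7A6OS. Taking every solute carrier gene other than the 10 members, 253 of 358 were tested, of which 80 were higher (31.6%) and 66 lower (26.1%). Their median was 0.02, and the 28 other transporters listed above are part of this set.

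**Figure D3:**
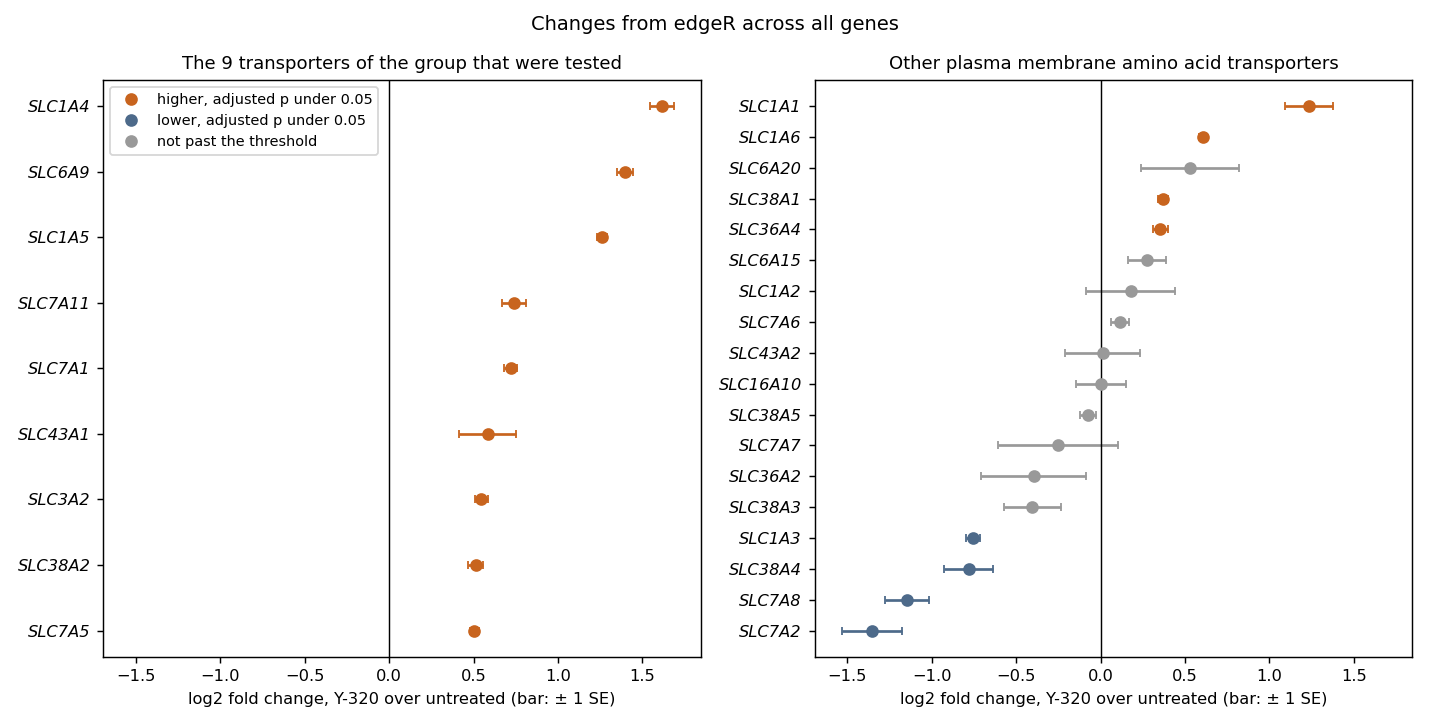
Log2 fold change of Y-320 over untreated from edgeR (horizontal axis, bars ± 1 SE) for the 9 tested transporters of the group (left) and the 18 tested other plasma membrane amino acid transporters (right), coloured by call at an adjusted p under 0.05. On the left all points lie between 0.50 and 1.62, and on the right they run from -1.35 for SLC7A2 to 1.24 for SLC1A1.

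Summed over the 38 transporters of both lists, the 10 members held 72.2% ± 0.493 of the per-length level in untreated and 76.8% ± 0.416 in treated libraries (SD, n = 3 each), or 74.2% and 78.5% by the longest transcripts. SLC38A2 held 22.4% ± 1.25 and then 21.7% ± 0.934, SLC3A2 19.4% ± 0.490 and then 19.3% ± 0.795, and SLC7A5 18.8% ± 0.247 and then 18.2% ± 0.291. These 3 leading carriers rose in level and kept about the same shares. SLC1A5 gained most, from 6.43% ± 0.154 to 10.5% ± 0.154, while SLC1A4 went from 0.956% ± 0.0740 to 1.99% ± 0.138 and SLC6A9 from 0.701% ± 0.0302 to 1.26% ± 0.0251. SLC7A11 held 0.808% ± 0.0531 and then 0.917% ± 0.0687. Shares were lost mainly by SLC38A5 (4.06% to 2.62%), SLC1A3 (2.61% to 1.05%) and SLC38A1 (7.17% to 6.31%), of which SLC38A1 itself rose.

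**Figure D4:**
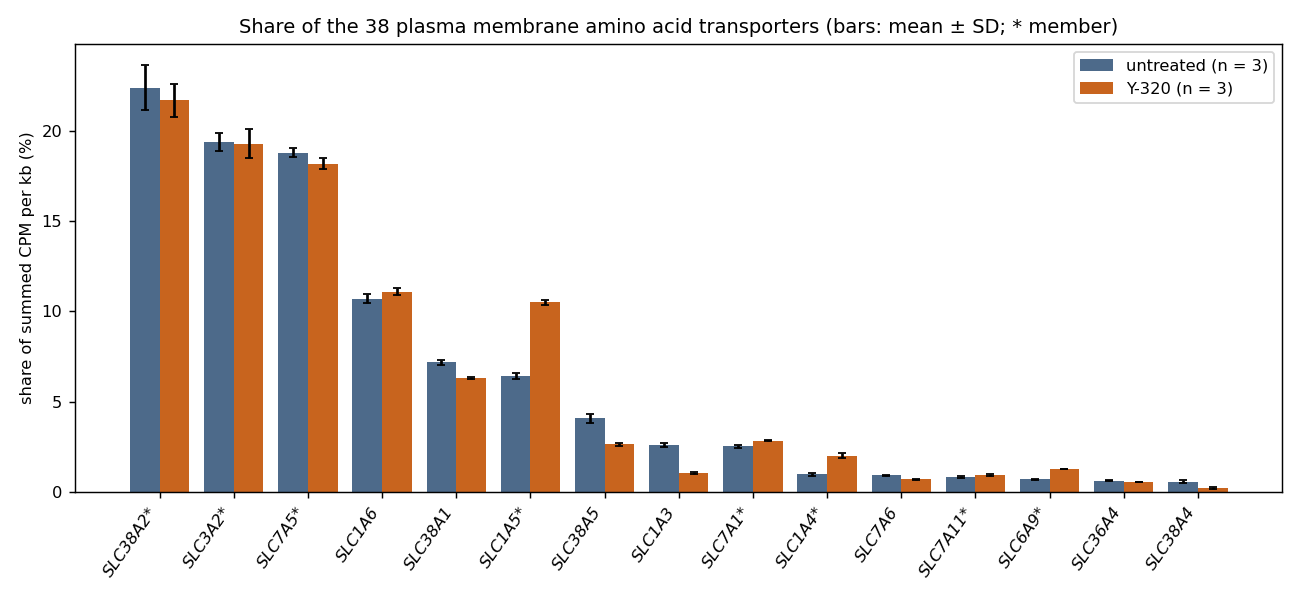
Share of the summed normalised CPM per kb of 38 plasma membrane amino acid transporters (vertical axis, percent, from 0) for the 15 genes with the highest shares, as mean ± SD of 3 untreated and 3 Y-320 treated libraries, with members of the group starred. SLC1A5 went from 6.43% to 10.5%, while SLC38A2, SLC3A2 and SLC7A5 held 18.2% to 22.4% in both groups.

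Genes around these carriers were read from lists of their own, also chosen with earlier results of these data known. One list held 8 genes, regulators of the amino acid response and, in NFE2L2, a regulator of the antioxidant response. Of these, 7 were higher and 0 lower by edgeR (beside 26.2% and 25.4% of all genes), with a median log2 fold change of 1.20. ATF4, which activates many transporter genes and has processed copies in the genome that could share its reads, rose by 1.09 (210.6 ± 2.84 to 448.7 ± 8.65 CPM, SD, n = 3 each, edgeR adjusted p = 7.52e-10). Its C/EBP partners CEBPG and CEBPB rose by 1.31 and 0.75, and ATF3, TRIB3 and DDIT3, themselves known targets of ATF4, by 2.36, 2.04 and 1.78. NFE2L2, the antioxidant response factor, rose by 0.15 (edgeR adjusted p = 0.00346). EIF2AK4, the kinase GCN2 that senses uncharged tRNA, had a change of -0.08 (edgeR adjusted p = 0.0848), with each treated library below each untreated one.

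The cystine brought in by SLC7A11 feeds glutathione, and of the 7 genes listed there 1 was higher, 3 were lower and 3 neither, beside 26.2% higher and 25.4% lower over all genes. The higher one was CHAC1, which degrades glutathione and is a known ATF4 target, with a rise of 1.92 (3.747 ± 0.36 to 14.21 ± 0.182 CPM, SD, n = 3 each, edgeR adjusted p = 4.92e-08). The 3 that were lower were the reductase GSR by 0.33, GGCT by 0.23 and the synthetase GSS by 0.12 on the log2 scale. Both subunits of glutamate-cysteine ligase passed no threshold, with 0.03 for GCLC and -0.03 for GCLM, nor did the peroxidase GPX4 with 0.01. In the lysosomal membrane, 3 of 7 listed amino acid transporters were higher and 3 lower (42.9% each, beside the same 26.2% and 25.4%). SLC15A4 rose by 0.27, SLC66A1 by 0.23 and the cystine exporter CTNS by 0.20, while SLC36A1 fell by 0.54, the arginine sensor SLC38A9 by 0.41 and SLC38A7 by 0.13 on the log2 scale. MFSD12 was at -0.02.

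Other genes were compared with SLC1A4 if they reached 1 CPM on average and were counted in every library after rounding, 15042 in all. Those whose 6 values followed SLC1A4 most closely were ULBP1, KIF21B, JUN, LOX and ALDH1L2. Closeness was the Euclidean distance of log2 CPM relative to the untreated mean over the 6 libraries, which was 0.129 for ULBP1 and 0.170 for ALDH1L2, and since the libraries fall into 2 groups it mostly ranks genes with a similar fold change. ULBP1 is a stress ligand for immune cells, JUN an AP-1 factor, LOX a collagen crosslinking enzyme and ALDH1L2 a mitochondrial folate enzyme, and their log2 fold changes ran from 1.57 to 1.65. SLC7A5 was followed most closely by ELP5, IPO13, PIM1, STK40 and FBXO8, at distances of 0.0384 to 0.0557 and log2 fold changes of 0.49 to 0.51.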

How the data were processed

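RNA-seq of HDQ-P1 cells comprised 3 untreated and 3 Y-320 treated libraries (1 μM, 48 h), made with an Illumina system. The authors deposited estimated counts per gene, unnormalized, labelled as made with kallisto (0.46.1 and hg38 in the submitters' processing notes). The Ensembl release, the strand setting and the combined pipelines named in the methods are not given in the sources used here. Because kallisto divides ambiguous reads among transcripts, genes that share sequence can exchange counts.

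The estimated counts were rounded. Of 40295 rows, 35390 were matched to a gene symbol. In R 4.3.3, edgeR 4.0.16 filtered genes (filterByExpr, minimum count 10, total 15), scaled libraries by TMM and fitted the quasi-likelihood model to all 6 libraries without a replicate block, with Benjamini-Hochberg adjustment over 16580 genes. The threshold was an adjusted p of 0.05. The fit was tested on 5 simulated sets with 200 changed genes each, far fewer than were called in the data. Of changes of 0.5, 1 and 1.5 on the log2 scale, it recovered 73.5%, 88.3% and 97%. False calls were 6.08% of all calls there. DESeq2 1.42.0, limma-voom (limma 3.58.1), other scalings and filters, unrounded counts, a replicate block and the removal of each library were alternatives. Python 3.11.15, numpy 2.4.6, pandas 2.3.3 and matplotlib 3.10.9 made the tables and plots. Depth was 21045401 to 22740535 counts per library, and intervals from a count of 0 cover counting error only. GENCODE 44 (hg38) gave positions and lengths, and sequence shared between genes was counted in 31-base words.

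The members and lists were chosen with earlier results of these data known. Named in the text were all members, the tested genes of the other transporter list, up to 5 called genes and the uncalled ones of each further list, the 5 nearest genes to the member with the highest and to that with the lowest change, and genes sharing sequence. CEBPB, NFE2L2 and SLC38A7 go beyond the limit of 5 and were named after their values were seen. Markers are given by their sums, counts of calls and names.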

Additional observations from a re-analysis of the deposited data

How the results depend on the processing

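The 9 tested members were recomputed under 15 alternatives each. Of 135 values, 133 kept their direction and side of the threshold, and 2 were no longer past it, both for SLC43A1, with a log2 fold change of 0.46 without untreated replicate 1 and 0.45 without Y-320 replicate 3. Over all alternatives the members' ranges were 1.55 to 1.68 for SLC1A4, 1.23 to 1.29 for SLC1A5, 1.36 to 1.42 for SLC6A9, 0.68 to 0.81 for SLC7A11, 0.68 to 0.75 for SLC7A1, 0.50 to 0.59 for SLC3A2, 0.47 to 0.57 for SLC38A2, 0.47 to 0.53 for SLC7A5 and 0.45 to 0.72 for SLC43A1. With the replicate number as a block, SLC43A1 was at 0.59 and 9 members were called higher. Deviations of same-numbered libraries correlated at -0.00236, 0.0155 and 0.00222 over all genes. Whether same-numbered libraries were prepared together is not stated, and these correlations cannot show it. Of 270 values for the 18 other transporters, 257 kept direction and side, 4 came past the threshold and 9 changed sign, all in genes that passed no threshold. Under upper-quartile scaling SLC43A2 was at -0.016 and SLC16A10 at -0.026. Leaving out 1 library gave SLC43A2 from -0.182 to 0.275, SLC16A10 from -0.046 to 0.039 and SLC7A7 from -0.531 to 0.085, the last without untreated replicate 2. Over all genes, DESeq2 called 3405 higher and 3278 lower, and upper-quartile scaling 3917 and 4746 with a median shift of -0.03, beside 4336 and 4210. SLC43A1 had 54 to 117 counts per library, and SLC1A1, with 47 to 138, kept its call without any 1 library. The causes of the lost calls and changed signs were not tested.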
